A study of Mus musculus with 4 samples.

Results

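The vascular endothelium of the mouse adrenal gland was described through 34 genes of endothelial identity and blood vessel growth, chosen by name from the 54532 genes of a read count table. All 34 were in the table, and all 34 had enough counts to be tested. RNA was sequenced from right adrenal glands. The mice, adult males of the C57BL/6 strain, had received either dexamethasone, a synthetic glucocorticoid, at 10 µg or the vehicle, phosphate-buffered saline (PBS), by intraperitoneal injection 1 h earlier. Each treatment had 5 mice, whose glands were combined into pools of 2 and 3 mice, so each group had 2 libraries (n = 2), and the labels do not say which replicate number holds which pool. The mice carried no stated genetic change. The spread between replicates is therefore a spread between pools and not between single mice.

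Endothelial cells line every blood vessel, and in the adrenal they form a dense bed of fenestrated sinusoids around the steroid-producing cells. They are recognised by adhesion and junction proteins such as PECAM1 and VE-cadherin, by receptors for vascular endothelial growth factors (VEGF) and angiopoietins, and by transcription factors of the ETS and SOXF families. Signals through these receptors set vessel growth, permeability and quiescence, and the adrenal cortex is itself a source of VEGF-A.

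Levels are given as CPM, read counts scaled to a common library size, after TMM scaling, a correction for differences in RNA composition. Libraries held 21904510 to 26948588 counts. Changes are log2 fold changes of dexamethasone over PBS with their standard error (SE), tested with edgeR's quasi-likelihood test, and a gene was called at a Benjamini-Hochberg adjusted p below 0.05, taken over the 16027 genes in the test. Of those genes 3.26% were higher and 1.37% lower after dexamethasone, 523 and 219 genes. Scaling by library totals alone gave 893 and 180. Markers of the labelled tissue were abundant. Star stood at 13217 to 22227 CPM and Cyp11a1 at 5592 to 10170 CPM in the 4 libraries, and the chromaffin marker Chga at 2883 to 4396 CPM. The glucocorticoid-induced genes Fkbp5, Tsc22d3, Zbtb16, Ddit4 and Klf9 were higher after dexamethasone, 5 of 6 on that list, and Per1 did not pass.

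Of the 34 endothelial genes 2 rose, Flt1 and Adgrl4, and 4 fell, Aplnr, Esm1, Cldn5 and Sox17. The other 28 did not pass. The share that rose was 5.88% beside 3.26% of all genes, and the share that fell 11.8% beside 1.37%. By DESeq2, another test of counts, 3 of the 34 rose and 5 fell, beside 913 and 868 of 14162 genes. The 34 genes were chosen with earlier results of these data known, so these shares are a description and no test of the list. The median log2 fold change of the 34 was 0.03, beside 0.01 for all genes tested. At an unadjusted p below 0.05 there were 12 of the 34 genes (35.3%), beside 27.5% of all genes. The libraries of the groups did not overlap in 13 genes with higher (38.2%) and 8 with lower values (23.5%) after dexamethasone, beside 30.8% and 29.7% of all genes. With a library left out the median of the 34 ran from −0.054 (without PBS replicate 2) to 0.083 (without PBS replicate 1). The median of all genes in these 2 fits was 0.0021 and 0.018.

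**Figure D1:**
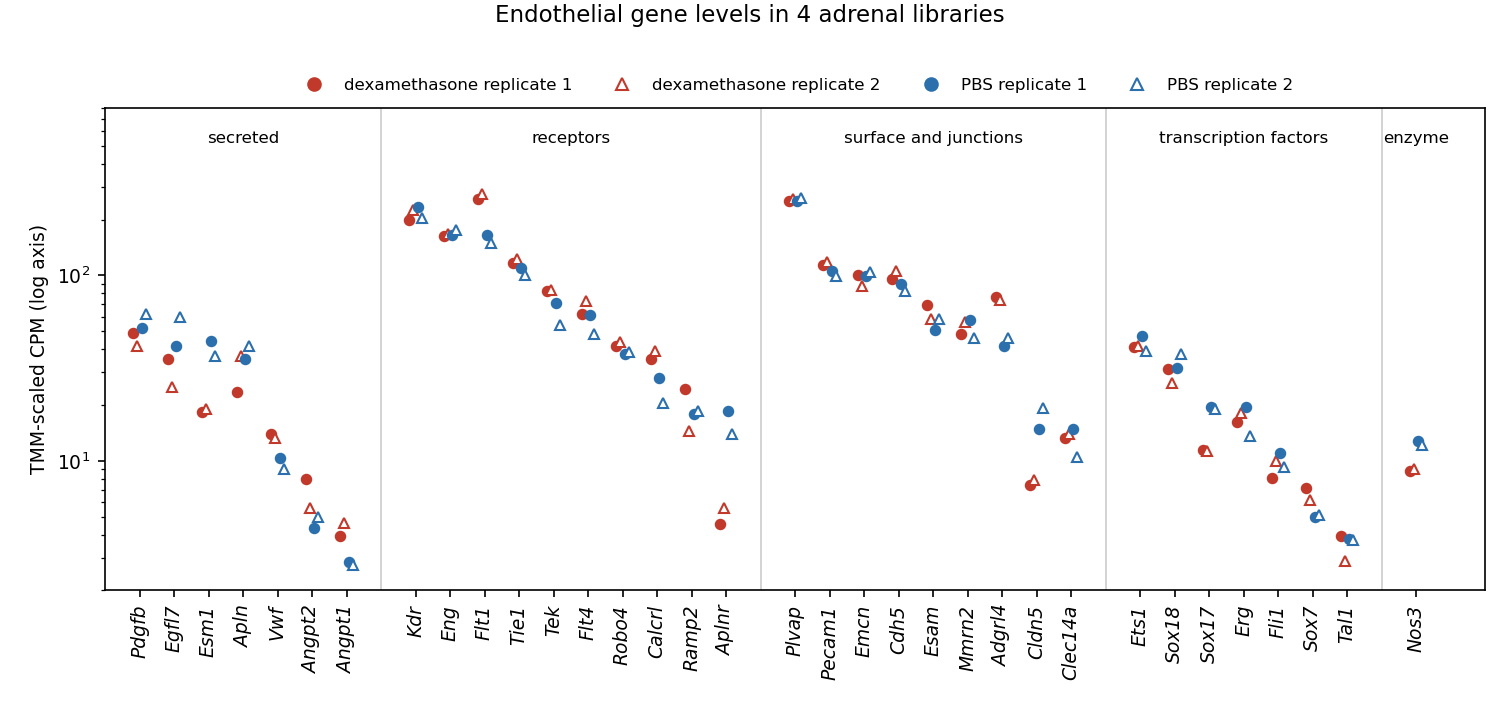
TMM-scaled CPM of the 34 endothelial genes in each of the 4 libraries on a log axis, ordered by PBS level within groups of known role. The groups do not overlap in 21 of the 34 genes, and among these Aplnr, Esm1, Cldn5 and Sox17 (lower after dexamethasone) and Flt1 and Adgrl4 (higher) passed the test.

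The summed level of all 34 genes was 2045 and 2102 CPM after dexamethasone against 1977 and 1907 CPM after PBS. The dexamethasone libraries were both above the PBS libraries, by 132 CPM on average, 1.07-fold. An exact permutation test over the libraries gave p = 0.333 (two-sided), the smallest that 2 libraries against 2 allow. The sum is weighted to genes of high CPM. Flt1 alone had a mean of 268 CPM after dexamethasone against 157 CPM after PBS, and Adgrl4 75.3 against 43.8 CPM. Of the 34 log2 fold changes 18 were above 0 and 16 below. With the trend along gene length removed the difference in the sum was 61.2 CPM. Pecam1 and Cdh5, 2 of the general endothelial markers among the 34 genes, stood somewhat above the PBS level. For each, both dexamethasone libraries were above both PBS libraries, as in 30.8% of all genes. Pecam1, the adhesion molecule also known as CD31, had 114 and 118 CPM after dexamethasone against 106 and 99.5 CPM after PBS. Cdh5, which encodes VE-cadherin, the adhesion protein of endothelial junctions, had 96.0 and 106 CPM against 90.4 and 82.2 CPM. Neither passed, at log2 fold changes of 0.18 ± 0.13 (SE, edgeR adjusted p = 0.414) and 0.23 ± 0.14 (adjusted p = 0.322). With the trend along gene length removed Pecam1 stood at 0.05 and Cdh5 at 0.22. Of the 9 genes of surface and junction proteins, these included, 6 log2 fold changes were above 0 and 3 below. Those below were Emcn (−0.12), Plvap (−0.01) and Cldn5 (−1.16). Among the receptor genes the markers Eng and Kdr both stood at −0.04. In bulk tissue fewer cells of a type and less RNA per cell cannot be told apart.

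For 4 of the 6 genes that passed, the reference table held a promoter sequence, the 250 bases before and 50 bases after the start of the gene (RefSeq, GRCm38.p6). They are shown because these genes moved in opposite directions, and each runs 5′ to 3′ on the strand of its gene. Capitals mark an ETS hexamer, CAGGAA or its reverse complement TTCCTG. Other forms of the ETS motif were not searched, so a window without capitals can still hold one. A hexamer bound by the glucocorticoid receptor (AGAACA or TGTTCT) and a SOX motif (ACAAT or ATTGT) were searched on both strands too and had no match in these 4 windows. Esm1, which fell, lies on the plus strand at chr13:113209409-113209708 and held 2 ETS matches. Cldn5, which fell, lies on the plus strand at chr16:18776597-18776896, Adgrl4, which rose, on the plus strand at chr3:151437632-151437931, and Flt1, which rose, on the minus strand at chr5:147725962-147726261.

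Esm1: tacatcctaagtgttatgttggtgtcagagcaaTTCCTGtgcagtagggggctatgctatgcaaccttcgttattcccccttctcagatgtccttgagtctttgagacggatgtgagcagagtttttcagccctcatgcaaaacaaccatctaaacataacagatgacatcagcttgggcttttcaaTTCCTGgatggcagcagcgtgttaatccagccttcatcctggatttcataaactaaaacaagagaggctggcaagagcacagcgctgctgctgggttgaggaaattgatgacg
Cldn5: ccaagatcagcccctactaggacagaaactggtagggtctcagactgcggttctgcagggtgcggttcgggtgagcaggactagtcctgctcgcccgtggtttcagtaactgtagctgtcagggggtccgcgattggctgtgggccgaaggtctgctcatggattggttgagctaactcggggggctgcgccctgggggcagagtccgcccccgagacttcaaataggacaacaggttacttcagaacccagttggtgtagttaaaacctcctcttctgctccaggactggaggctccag
Adgrl4: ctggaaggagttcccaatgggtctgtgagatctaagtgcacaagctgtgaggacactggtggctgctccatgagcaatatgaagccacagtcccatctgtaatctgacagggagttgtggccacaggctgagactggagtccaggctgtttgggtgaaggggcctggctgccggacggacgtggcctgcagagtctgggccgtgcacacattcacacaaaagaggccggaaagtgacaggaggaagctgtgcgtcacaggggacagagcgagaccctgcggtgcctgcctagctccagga
Flt1: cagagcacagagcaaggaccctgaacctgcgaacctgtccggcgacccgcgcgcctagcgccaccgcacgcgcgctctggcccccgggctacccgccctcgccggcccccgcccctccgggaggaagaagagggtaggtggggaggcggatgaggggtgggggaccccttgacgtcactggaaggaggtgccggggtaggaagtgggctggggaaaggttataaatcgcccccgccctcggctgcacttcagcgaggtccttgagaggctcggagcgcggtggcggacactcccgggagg

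The G and C content was 46.3% for Esm1, 58.3% for Cldn5, 58.7% for Adgrl4 and 70.7% for Flt1, beside a median of 52.7% over all 32851 promoter windows of the table. In all, 17 of the 34 genes had 22 windows there. The ETS hexamer was in 12 of these 22 windows (54.5%), those of Apln, Calcrl, Clec14a, Egfl7, Emcn, Eng, Erg, Esm1, Robo4, Tek and Tie1, and in 30.6% of all windows. The hexamer of the glucocorticoid receptor was in 5 of the 22 (22.7%), those of Calcrl, Egfl7, Erg, Tal1 and Tek, and in 19% of all windows. The SOX motif was in 6 of the 22 (27.3%) and in 31% of all windows. A match of letters is a description of the window and not a binding site.

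Among the 10 receptor genes 1 fell, 1 rose and 8 did not pass. The steepest change of the 34 genes was that of Aplnr (ENSMUSG00000044338, GRCm38 chromosome 2, 85136225 to 85139923), which encodes the G protein-coupled receptor for apelin and Elabela and marks endothelial cells of growing vessels and veins. Aplnr was counted 123 and 154 times in the dexamethasone libraries and 496 and 291 times in the PBS libraries. This corresponds to 4.58 and 5.60 CPM after dexamethasone against 18.7 and 14.0 CPM after PBS, so the lower PBS library was still well above both dexamethasone libraries. Aplnr was 3.21-fold lower (log2 fold change −1.68 ± 0.22, SE, n = 2 per group, edgeR adjusted p = 0.00776). It passed in all 11 alternative fits, at −1.89 to −1.48. Apln, the gene of its ligand apelin, had 23.6 and 36.6 CPM after dexamethasone against 35.4 and 41.5 CPM after PBS. The groups overlapped in Apln, and Apln did not pass (log2 fold change −0.35 ± 0.21, adjusted p = 0.31). Per kilobase of gene length, Aplnr stood at 0.165 and 0.13 of the Apln level after dexamethasone and at 0.45 and 0.287 of it after PBS. Apela, the gene of Elabela, the other known ligand, was listed at 0 in all 4 libraries.

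The VEGF receptor genes stood at different changes. Flt1 (ENSMUSG00000029648, chromosome 5, 147561604 to 147726011) encodes VEGFR1, which binds VEGF-A tightly and, as a soluble form, acts as a decoy. Its level was 259 and 276 CPM after dexamethasone against 166 and 149 CPM after PBS, and the groups did not overlap. Flt1 was 1.70-fold higher (log2 fold change 0.77 ± 0.14, SE, edgeR adjusted p = 0.0241). It did not pass without dexamethasone replicate 2 (0.72, adjusted p = 0.0731) or with the trend along gene length removed (0.41, adjusted p = 0.088), in a range of adjusted p from 0.000128 to 0.127 over 11 alternatives. Kdr, which encodes VEGFR2, the main signalling receptor for VEGF-A, had 199 and 225 CPM after dexamethasone against 234 and 204 CPM after PBS. These values overlapped, and the log2 fold change was −0.04 ± 0.15 (adjusted p = 0.873). The ratio of Flt1 to Kdr level per kilobase was 0.869 and 0.821 in the dexamethasone libraries and 0.474 and 0.488 in the PBS libraries. The ratios did not overlap between the groups, but Flt1 alone did not overlap either, so they are no separate result. In addition, 2 libraries against 2 allow no exact p below 0.333. Flt4, which encodes VEGFR3, the receptor for VEGF-C and VEGF-D, had 62.1 and 72.5 CPM against 61.5 and 48.5 CPM and did not pass (0.29 ± 0.16, adjusted p = 0.284).

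The angiopoietin receptor genes were both somewhat above the PBS level without passing. Tek, which encodes TIE2, had 82.8 and 83.7 CPM after dexamethasone against 70.9 and 53.8 CPM after PBS, a log2 fold change of 0.42 ± 0.16 (SE, edgeR adjusted p = 0.141). Without PBS replicate 1 it passed at 0.61 (adjusted p = 0.0178, in a range from 0.0178 to 0.558 over 11 alternatives). Tie1, whose orphan receptor product pairs with TIE2, had 117 and 122 CPM against 110 and 100 CPM (0.19 ± 0.14, adjusted p = 0.409).

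The receptor for adrenomedullin is formed by the products of Calcrl and Ramp2, and endothelial cells depend on it for vessel integrity. Calcrl had 35.5 and 39.3 CPM after dexamethasone against 27.9 and 20.4 CPM after PBS. The dexamethasone libraries were both higher, but the log2 fold change of 0.63 ± 0.18 (SE) did not pass in edgeR (adjusted p = 0.0734). It passed with DESeq2 (0.62), with no filter on low counts (0.63) and without PBS replicate 1 (0.85), in a range of adjusted p from 0.00268 to 0.263 over 11 alternatives. Ramp2, the accessory protein gene, had 24.4 and 14.5 CPM against 17.9 and 18.7 CPM, so the dexamethasone libraries lay on both sides of the PBS ones (0.09 ± 0.24, adjusted p = 0.831). Ramp2, listed at 3301 bases, shares 1103 exonic bases with Vps25 on the same strand, so reads there cannot be given to one of them. Vps25 had at most 8 counts. Robo4, an endothelial roundabout receptor gene that stabilises vessels, and Eng, which encodes the TGF-beta family co-receptor endoglin, had log2 fold changes of 0.16 ± 0.14 and −0.04 ± 0.14, and neither passed. Eng shares 61 exonic bases with Fpgs on the other strand, which had at most 427 counts.

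**Figure D2:**
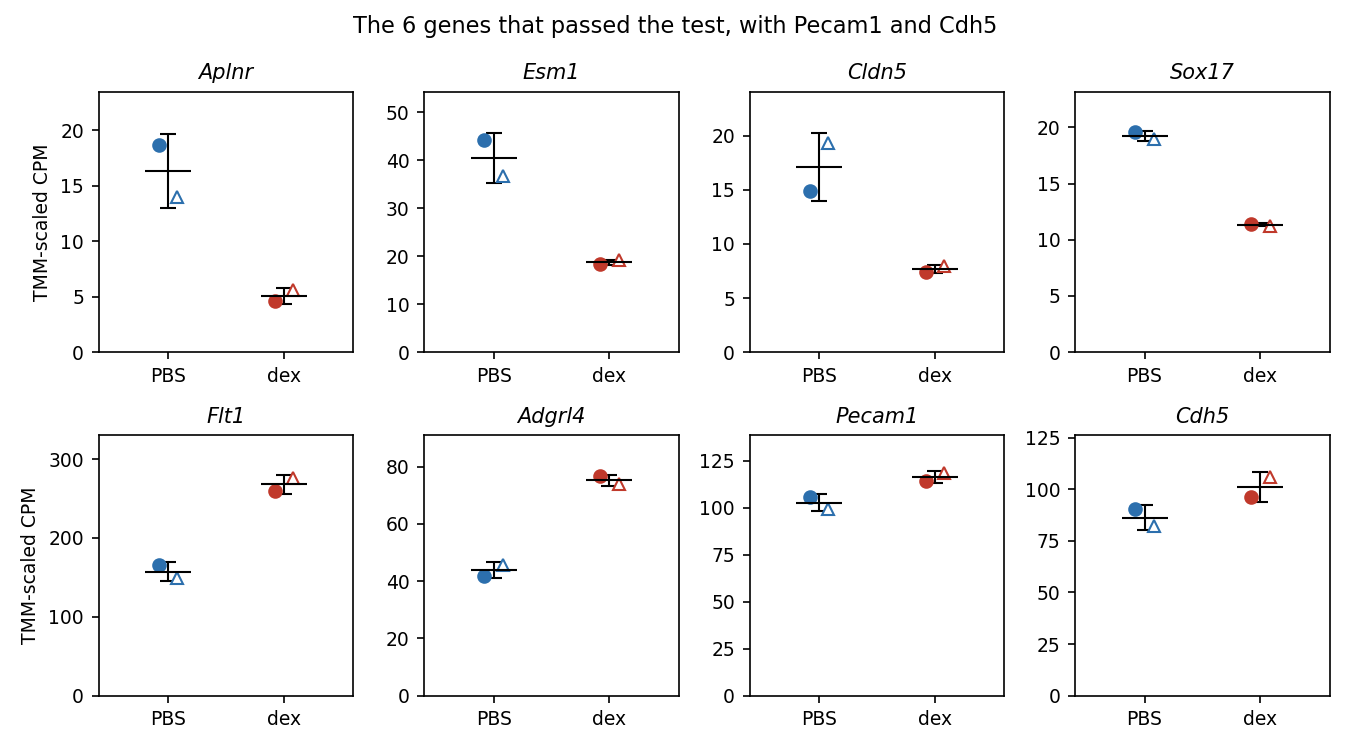
TMM-scaled CPM of the 6 genes that passed and of the general markers Pecam1 and Cdh5, with blue symbols for PBS and red for dexamethasone, filled circles for replicate 1 and open triangles for replicate 2. Horizontal lines are means, bars are the SD of 2 libraries, and each axis starts at 0. The 6 genes were picked by the test on these same libraries, so the gap between their groups is no separate result. For Aplnr the values are 5.09 ± 0.721 CPM after dexamethasone against 16.3 ± 3.32 CPM after PBS.

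Of the 7 genes of secreted products 1 fell, 0 rose and 6 did not pass. Esm1 (ENSMUSG00000042379, chromosome 13, 113209659 to 113218098) encodes endocan, a proteoglycan released by endothelial tip cells at the front of growing vessels, and is known to be induced by VEGF-A. It had 18.3 and 19.1 CPM after dexamethasone against 44.2 and 36.8 CPM after PBS. The dexamethasone libraries lay close together and below both PBS libraries. Esm1 was 2.16-fold lower (log2 fold change −1.11 ± 0.16, SE, n = 2 per group, edgeR adjusted p = 0.00959), and it passed in all 11 alternative fits, at −1.25 to −0.91. Vegfa itself had 245 and 208 CPM after dexamethasone against 422 and 244 CPM after PBS. Its PBS libraries lay far apart, with replicate 2 just below the higher dexamethasone library, and Vegfa did not pass (log2 fold change −0.56 ± 0.24, adjusted p = 0.171).

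Egfl7, which encodes a matrix protein deposited by endothelial cells and hosts the microRNA gene Mir126a, had 35.2 and 25.0 CPM after dexamethasone against 41.6 and 59.8 CPM after PBS. Egfl7 did not pass in edgeR (log2 fold change −0.75 ± 0.22, SE, adjusted p = 0.0761). It passed with DESeq2 (−0.77), with no filter (−0.75) and with a replicate block added and the length trend removed (−0.70, edgeR adjusted p = 0.0475). With the replicate block alone it did not pass (−0.75, edgeR adjusted p = 0.148). Without dexamethasone replicate 1 and without PBS replicate 1 its log2 fold change was −1.02 and −1.01. Over 11 alternatives it ran from −1.02 to −0.48. Egfl7 shares 64 exonic bases with Agpat2 on the other strand, and whether counting used strand is not given in the sources used here.

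The remaining secreted factors did not pass. Pdgfb, whose product recruits pericytes, had 48.8 and 41.7 CPM after dexamethasone against 52.1 and 61.7 CPM after PBS (−0.33 ± 0.16, SE). Angpt1, the TIE2 agonist gene, made mostly by cells around vessels, was low at 3.91 and 4.62 CPM against 2.86 and 2.74 CPM (0.60 ± 0.26). Angpt2, whose product antagonises TIE2 in many settings and is stored in endothelial cells, was low as well at 8.0 and 5.56 CPM against 4.37 and 5.00 CPM (0.54 ± 0.25). Adjusted p in edgeR was 0.206, 0.177 and 0.209 for these 3 genes. Vwf, which encodes the clotting protein von Willebrand factor, had 13.9 and 13.3 CPM against 10.3 and 9.04 CPM. Vwf is the longest of the 34 genes at 16064 bases, and its log2 fold change of 0.49 ± 0.18 (adjusted p = 0.128) was 0.09 with the length trend removed.

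Of the 9 genes of surface and junction proteins 1 rose, 1 fell and 7 did not pass. Adgrl4 (ENSMUSG00000039167, chromosome 3, 151437887 to 151545086), also known as Eltd1, encodes an adhesion G protein-coupled receptor of endothelial cells. It had 76.7 and 73.9 CPM after dexamethasone against 41.9 and 45.8 CPM after PBS, with little spread within either group. Adgrl4 was 1.72-fold higher (log2 fold change 0.78 ± 0.14, SE, n = 2 per group, edgeR adjusted p = 0.0199), and it passed in 10 of 11 alternative fits, with log2 fold changes of 0.70 to 0.88 and adjusted p from 0.000192 to 0.0744. Cldn5 (ENSMUSG00000041378, chromosome 16, 18776847 to 18778262) encodes claudin 5, the main tight junction claudin of endothelium. It had 7.41 and 7.92 CPM after dexamethasone against 14.9 and 19.3 CPM after PBS. Cldn5 was 2.23-fold lower (−1.16 ± 0.20, adjusted p = 0.018). Cldn5 is the shortest of the 34 genes at 1416 bases, and with the length trend removed it did not pass (−0.83, adjusted p = 0.0586, in a range from 6.71e-06 to 0.0586 over 11 alternatives).

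Plvap, whose product forms the diaphragms of fenestrated endothelium, had the highest level per kilobase of the 34 genes, 129 ± 4.0 CPM per kilobase after PBS (SD, n = 2) and 128 ± 1.92 after dexamethasone. Its CPM values of 252 and 257 after dexamethasone lay between the PBS values of 250 and 262. The log2 fold change was −0.01 ± 0.14 (SE, edgeR adjusted p = 0.97), and 0.21 with the length trend removed. Emcn, the gene of the sialomucin endomucin of capillaries and veins, had −0.12 ± 0.14, and Esam, an adhesion molecule gene, 0.23 ± 0.15. The C-type lectin gene Clec14a and the gene of its matrix ligand, Mmrn2, had 0.10 ± 0.21 and 0.01 ± 0.16. None of these 4 passed, and in each of them the libraries of the groups overlapped.

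Of the 7 transcription factor genes 1 fell, 0 rose and 6 did not pass. Sox17 (ENSMUSG00000025902, chromosome 1, 4490931 to 4497354) encodes a SOXF factor of arterial endothelium. It had 11.4 and 11.2 CPM after dexamethasone against 19.6 and 18.9 CPM after PBS, with almost no spread within a group. Sox17 was 1.70-fold lower (log2 fold change −0.77 ± 0.16, SE, n = 2 per group, edgeR adjusted p = 0.0379). With 1 library fewer its size stayed near this, but it did not pass without dexamethasone replicate 1 (−0.78, adjusted p = 0.0604) or dexamethasone replicate 2 (−0.75, adjusted p = 0.139), and its adjusted p over 11 alternatives ran from 0.00386 to 0.139. With the length trend removed Sox17 passed at −0.81. Sox17 shares 804 exonic bases with Gm37587 on the other strand, a gene that had at most 1 count.

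The other SOXF genes did not pass. Sox18 had 31.2 and 26.3 CPM after dexamethasone against 31.8 and 37.8 CPM after PBS (−0.28 ± 0.16, SE). Sox7 had 7.15 and 6.14 CPM against 4.97 and 5.10 CPM (0.40 ± 0.22). Their edgeR adjusted p was 0.306 and 0.27, and that their changes differ from that of Sox17 was not tested. The ETS family genes Erg, Ets1 and Fli1 and the haematopoietic and endothelial factor gene Tal1 had log2 fold changes of 0.04 ± 0.21, −0.06 ± 0.15, −0.16 ± 0.21 and −0.15 ± 0.27, with overlapping libraries in each.

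Nos3, which encodes endothelial nitric oxide synthase, the source of the vasodilator nitric oxide, had 8.86 and 9.05 CPM after dexamethasone against 12.8 and 12.2 CPM after PBS. The groups did not overlap, and the log2 fold change of −0.48 ± 0.18 (SE) did not pass in edgeR (adjusted p = 0.13). Nos3 shares 294 exonic bases with Atg9b and 1040 with Gm15587, both on the other strand, which had at most 10 and 8 counts.

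**Figure D3:**
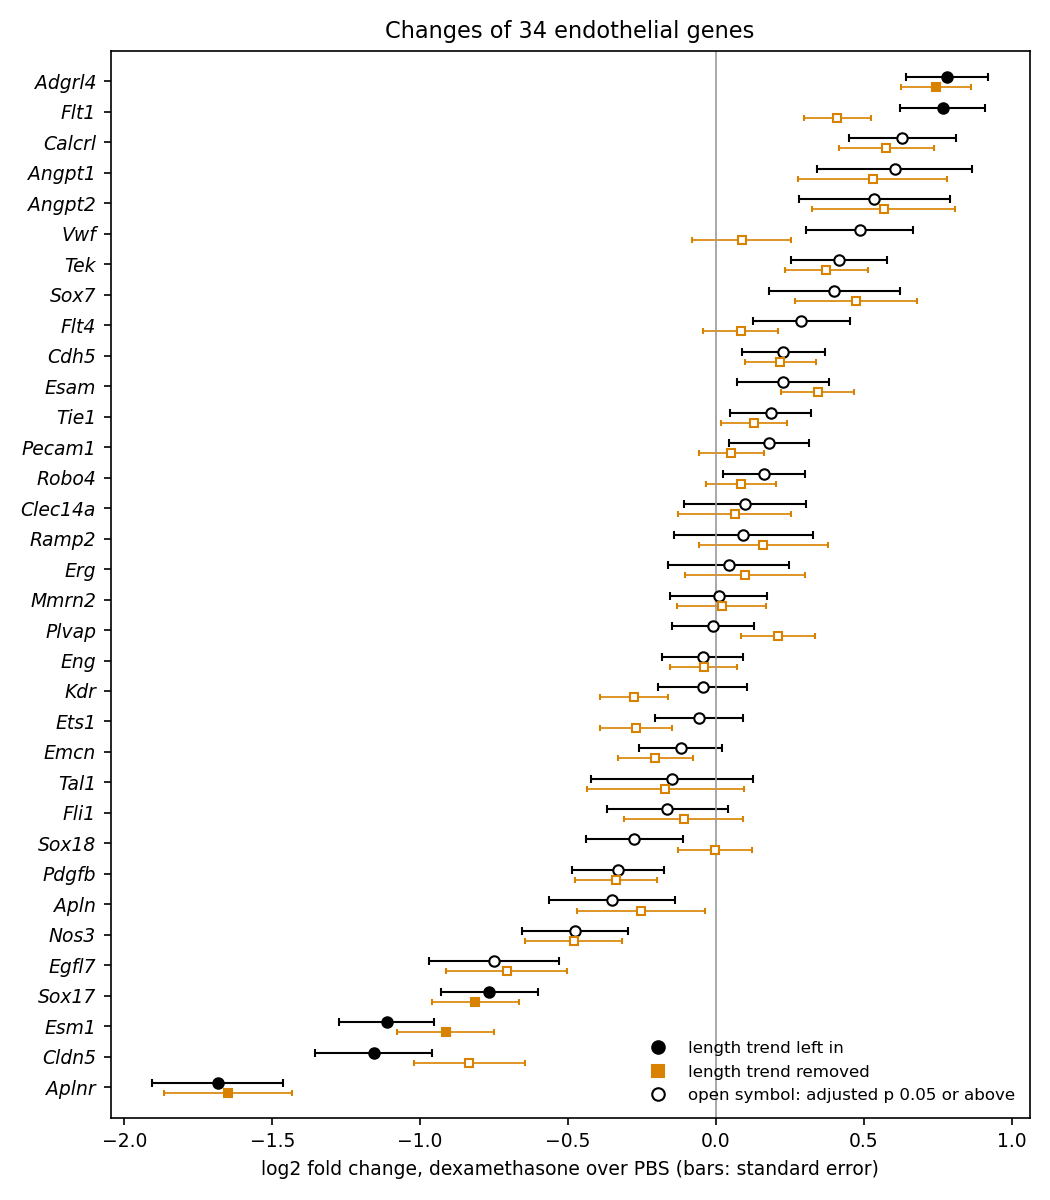
Log2 fold change of dexamethasone over PBS for the 34 endothelial genes with its standard error, as tested (black circles) and with the trend along gene length removed (orange squares). Filled symbols passed at an adjusted p below 0.05, and Aplnr, Esm1, Sox17 and Adgrl4 are filled in both fits.

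Across all protein-coding genes longer genes, by the length listed in the table, had higher fold changes, and the endothelial genes followed. The correlation of log2 fold change with log2 length was 0.48 over the 34 genes (Spearman's rho 0.44) and 0.39 over 14249 protein-coding genes (0.46). These are correlations across genes that share the same 4 libraries, given as a description. The 34 genes ran from 1416 to 16064 bases with a median of 4182, close to the median of 4107 of all genes tested. With the trend removed from each library, 2.01% of all genes were higher and 0.948% lower, and of the endothelial genes 1 was higher, Adgrl4, and 3 were lower, Aplnr, Esm1 and Sox17. The median of the 34 was then 0.06.

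**Figure D4:**
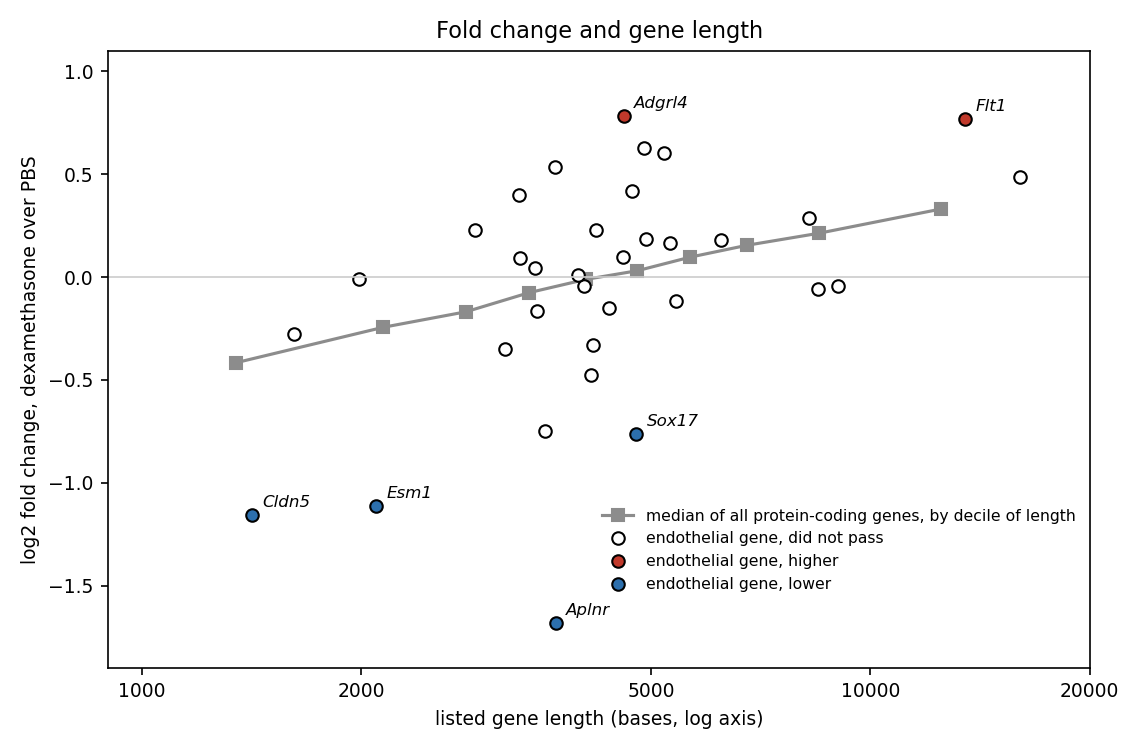
Log2 fold change of dexamethasone over PBS against the listed gene length on a log axis for the 34 endothelial genes (circles), with the median of all protein-coding genes in each decile of length (grey squares). The grey line climbs from −0.42 in the decile of shortest to 0.33 in that of longest genes. Aplnr, Esm1, Cldn5 and Sox17 lie well below it and Adgrl4 well above.

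Levels of different genes were compared per kilobase of gene length. After PBS the order was led by Plvap, then Eng at 42.1 ± 1.76 CPM per kilobase (SD, n = 2), then Kdr at 24.2 ± 2.30, and it ended with Vwf at 0.602 ± 0.0564 and Angpt1 at 0.538 ± 0.0166. Of 33 neighbouring pairs in this order, 21 had library values that overlapped, among them the run from Kdr through Sox18, Tie1, Cdh5, Esm1, Esam and Emcn. Esm1 was the seventh of the 34 after PBS and stood at rank 16 after dexamethasone, Aplnr went from rank 25 to rank 31, and Flt1 from rank 17 to rank 7.

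The 6 genes were also expressed relative to the sum of Pecam1 and Cdh5, a reference chosen after the values were seen. This sum stood at 210 and 225 CPM after dexamethasone against 196 and 182 CPM after PBS, a difference too small to turn the direction of any of the 6, so the ratios are given as values alone. Per 100 CPM of this sum, Aplnr had 2.18 and 2.49 CPM after dexamethasone against 9.51 and 7.70 CPM after PBS. Esm1 had 8.73 and 8.51 against 22.5 and 20.2, Cldn5 3.52 and 3.53 against 7.59 and 10.6, and Sox17 5.44 and 5.00 against 9.97 and 10.4. Flt1 had 123 and 123 against 84.4 and 82.0, and Adgrl4 36.5 and 32.9 against 21.3 and 25.2.

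Of 19 partner genes (ligands, co-receptors and receptors of the products above) 15 could be tested, of which 2 rose (13.3%), 0 fell and 13 did not pass, beside 3.26% and 1.37% of all genes. Their median log2 fold change was 0.17, beside 0.01 for all genes, and 0.0050 with the length trend removed. Those that rose were Ptprb, the gene of the endothelial phosphatase that restrains TIE2, at 0.78 ± 0.16 (SE, edgeR adjusted p = 0.0325), and Slit2, a guidance ligand gene, at 0.80 ± 0.17 (adjusted p = 0.0358). Ptprb had 140 and 155 CPM after dexamethasone against 96.1 and 76.2 CPM after PBS. Both are long genes, and with the length trend removed neither passed, at 0.43 and 0.28. Vegfc and Cd93 had −0.83 ± 0.28 and 0.47 ± 0.14 and did not pass.

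A further 26 genes known from endothelial cells were all tested, and 4 rose (15.4%), 3 fell (11.5%) and 19 did not pass, beside 3.26% and 1.37% of all genes. Their median was −0.10, beside 0.01 for all genes. Bcl6b, a transcriptional repressor gene, fell by 1.61 ± 0.25 on the log2 scale (SE, edgeR adjusted p = 0.0129), with 5.06 and 8.51 CPM after dexamethasone against 18.7 and 22.9 CPM after PBS. Lmo2, a gene of a blood and endothelial transcription cofactor, had −1.09 ± 0.19 (adjusted p = 0.0196), and Icam2, an adhesion molecule gene, −0.89 ± 0.20 (adjusted p = 0.0424). The genes that rose were Adgrf5, an adhesion G protein-coupled receptor gene (0.90 ± 0.15), Hhex, a homeobox gene (0.81 ± 0.17), Cyyr1 (0.81 ± 0.18) and the scavenger receptor gene Stab1 (0.74 ± 0.14). With the length trend removed Bcl6b (−1.58), Lmo2 (−0.90), Adgrf5 (0.66) and Hhex (1.06) passed, and Icam2, Cyyr1 and Stab1 did not.

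Markers of other cells moved beside these genes. Of 5 red blood cell markers 3 fell and 0 rose, 60% beside 1.37% of all genes lower. Those that fell encode haemoglobin chains: Hbb-bs (−1.08 ± 0.23), Hba-a1 (−1.17 ± 0.23) and Hba-a2 (−1.45 ± 0.32). With the length trend removed 0 of the 5 passed. Their summed levels were 146 and 137 CPM after dexamethasone against 226 and 394 CPM after PBS, and none of the 5 was at 0. Of 10 leukocyte markers 6 could be tested, of which 2 rose (33.3%, beside 3.26% of all genes), the macrophage genes Mrc1 and Cd163. The other 4 did not pass. Adgre1 had 0.36 ± 0.17, Ptprc 0.29 ± 0.18, Csf1r 0.22 ± 0.14 and Lyz2 −0.16 ± 0.28. Cd163 did not pass with the length trend removed (0.83, adjusted p = 0.0702). The summed leukocyte level overlapped between groups at 285 and 231 CPM against 193 and 256 CPM. Of 6 platelet markers 4 could be tested and 0 passed in edgeR or DESeq2. At an unadjusted p below 0.05 in edgeR there was 1 (25%, beside 27.5% of all genes). Their summed levels were 6.36 and 4.40 CPM against 7.0 and 10.1 CPM, with Gp1bb at 0. Of 7 cortical markers 0 passed in edgeR, and 2 were lower by DESeq2, beside 868 of 14162 genes. At an unadjusted p below 0.05 in edgeR there were 4 (57.1%, beside 27.5% of all genes). All 7 were lower after dexamethasone with libraries that did not overlap, 100% beside 29.7% of all genes. They are short, with a median of 2140 bases beside 4107 for all genes tested. With the length trend removed their median log2 fold change went from −0.40 to −0.12. All 7 were still below 0 in that fit, and 0 passed. Their summed levels were 45155 and 41826 CPM against 58918 and 59444 CPM. Fat was trimmed from the glands per the labels, and of 5 adipocyte markers 0 passed in edgeR or DESeq2. At an unadjusted p below 0.05 in edgeR there were 2 (40%, beside 27.5% of all genes). Their summed levels were 220 and 145 CPM against 174 and 242 CPM. The part of these cells in the endothelial values was not tested.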

How the data were processed

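The authors deposited 1 table of raw read counts (whole numbers) of 4 libraries with gene coordinates and lengths. The submitters' processing notes list STAR 2.5, HTSeq 0.6.1 and CASAVA 1.8 and the build mm10 (GRCm38), with no role or order; how reads were counted, and whether strand was used, is not given in the sources used here. The column letters D and S were read as dexamethasone and saline and the number as the replicate. The deposited gene length equals the summed exons of GENCODE M21 for all 34 genes, whose coordinates also match.

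Genes were kept with filterByExpr by group (16027 of 27040 with at least 1 count), scaled with TMM and tested with edgeR 4.0.16 in R 4.3.3, group as the sole term, 2 residual degrees of freedom, biological coefficient of variation 0.149. The SE is the size of the change over the root of its F statistic, from a spread that the fit shares in part across genes. The length trend was removed as a lowess per library (span 0.3) of log2 CPM, with a prior count of 2. Alternatives were DESeq2 1.42.0, 2 other scalings, no filter, a replicate block and leaving out each library. The code was tested on simulated data. Replicates differed by a chi-square of 24.1 and 31.7 per degree of freedom for dexamethasone and PBS, so none was counted as a repeat. The lowest count of the 34 genes was 57, for Angpt1, where counting error alone gives a coefficient of variation of 13.2%; at the highest count it is 1.15%. Members and lists were chosen with earlier results of these data known. Named genes were all 34 members and, of each other list, those that passed and up to 4 others with the smallest p, and the glucocorticoid-induced genes. Apela, Ccl21a and Gp1bb, which had 0 counts, and genes that share exons with members were named after their values were seen.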

Additional observations from a re-analysis of the deposited data

How the results depend on the processing

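Each of the 34 genes was recomputed under 11 alternatives, which gave 374 values: 336 kept their direction and side of the threshold, 9 no longer passed, 9 newly passed and 20 changed sign. Aplnr and Esm1 passed in all 11, Cldn5 and Adgrl4 in 10, Sox17 in 8 and Flt1 in 7. The replicate numbers share no stated batch, and the deviations of equal numbers correlated at −0.03 over all genes and −0.47 over the endothelial genes. They were not treated as pairs; with a replicate block 0 endothelial genes rose and 3 fell, 244 of all genes were higher and 89 lower, and Flt1, Adgrl4 and Sox17 did not pass. With the length trend removed 1 endothelial gene rose and 322 of all genes were higher; with the replicate block and the length trend removed these were 1 and 521, and 419 of all genes were lower. Library totals alone gave 893 higher genes, a median of 0.12 for the endothelial genes and 0.10 for all genes, DESeq2 gave 913 higher and 868 lower genes, and no filter 1384 and 1329. Leaving out each library in turn gave 1 to 4 endothelial genes higher, 3 to 5 lower and a median of −0.054 (without PBS replicate 2) to 0.083 (without PBS replicate 1), with 337 to 1595 of all genes higher and 147 to 1747 lower. The difference in summed level stayed positive, at 61.2 CPM with the length trend removed, 261 CPM with library totals and 81.7 to 153 CPM with a library left out. All sign changes were of genes that did not pass. With library totals Kdr, Eng, Plvap and Ets1 stood at 0.046, 0.049, 0.083 and 0.033; Mmrn2 stood at −0.0010 with size factors of the DESeq2 type and −0.00094 by DESeq2; Plvap stood at 0.21 with the length trend removed and 0.21 with the replicate block as well. With a library left out the ranges were −0.15 to 0.037 for Kdr, −0.33 to 0.42 for Ramp2, −0.060 to 0.0099 for Plvap, −0.16 to 0.17 for Mmrn2, −0.14 to 0.36 for Clec14a, −0.21 to 0.32 for Erg, −0.19 to 0.057 for Ets1 and −0.39 to 0.057 for Tal1. The cause was not tested. A fit without a library leaves 1 sample in an arm, which is assumed to vary like the other group.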

Other observations

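Of 6 markers of lymphatic endothelium 5 could be tested, of which 1 was higher in edgeR (20%, beside 3.26% of all genes) and 0 lower. DESeq2 gave an adjusted p for 4 of them, with 2 higher and 0 lower, beside 913 and 868 of 14162 genes. Prox1, a homeobox gene of lymphatic and other cells, was higher, with 84.3 and 98.0 CPM after dexamethasone against 50.2 and 44.2 CPM after PBS (log2 fold change 0.95 ± 0.15, SE, n = 2 per group, edgeR adjusted p = 0.0132; 0.74 with the length trend removed, where it passed). Lyve1, the hyaluronan receptor gene of lymphatic endothelium and some macrophages, had 13.4 and 7.89 CPM against 5.05 and 5.05 CPM and did not pass in edgeR (1.07 ± 0.27, adjusted p = 0.0583). The lymphatic chemokine gene Ccl21a had 0 counts in all 4 libraries.

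Of 11 markers of mural cells, which surround vessels, 1 rose (9.09%, beside 3.26% of all genes) and 10 did not pass in edgeR. DESeq2 gave 2 of the 11 higher and 1 lower, beside 913 and 868 of 14162 genes. The gene that rose in edgeR was Abcc9, a subunit gene of the potassium channel of pericytes and smooth muscle, with 47.5 and 57.6 CPM after dexamethasone against 26.9 and 21.7 CPM after PBS (1.11 ± 0.17, edgeR adjusted p = 0.0119; 0.90 with the length trend removed, where it passed). Kcnj8, which encodes the pore subunit that pairs with it, had 13.2 and 13.2 CPM against 17.4 and 26.1 CPM and did not pass (−0.72 ± 0.21, adjusted p = 0.0781). The pericyte gene Rgs5 had 107 and 101 CPM against 71.9 and 74.6 CPM and did not pass either (0.51 ± 0.13, adjusted p = 0.0635). The muscle filament genes Acta2 and Des had log2 fold changes of −0.41 ± 0.20 and 0.27 ± 0.15 and did not pass. Of 6 fibroblast and capsule markers and 5 chromaffin markers 0 passed in edgeR or DESeq2. At an unadjusted p below 0.05 in edgeR there were 3 of the 6 (50%) and 0 of the 5, beside 27.5% of all genes. With the length trend removed 1 of the 6 fibroblast and capsule markers was lower, Col1a1, beside 0.948% of all genes. Its log2 fold change was then −0.53 (edgeR adjusted p = 0.0451).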
